A study of Mus musculus with 3 samples.

Results

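Pancreatic islets of high-fat-fed mice that had received the compound CGP 57380 were set against islets of mice on the diet labelled ND, 1 library a side, across every gene of the deposited table for that pair. The table holds 23063 of the 24119 genes that the series lists in any of its 3 pairwise tables. All of them were taken, and the 11399 with a normalised value of 100 or more in the higher of the 2 libraries are described first, since the ratio of a gene with few reads is imprecise. All mice were male C57BL/6. The ND library came from mice on the ND diet gavaged with DMSO, the solvent. The HFD_CGP library came from mice on a high-fat diet (HFD) gavaged with CGP 57380. A library named HFD_DMSO, from high-fat-fed mice given DMSO, is quoted beside them as a value only. Gavage lasted 1 month in all groups. The protocol also gives 4 months without saying whether this is the age or the time on the diet. Neither the number of mice behind a library nor a pooling of animals is stated. HFD_CGP and ND differ in diet and in compound at once, so the parts of the diet and of CGP 57380 in any difference cannot be told apart.

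Islets are clusters of endocrine cells in the pancreas: beta cells secrete insulin, alpha cells glucagon, delta cells somatostatin and PP cells pancreatic polypeptide. They lie within exocrine tissue, whose acinar cells make digestive enzymes and whose ducts carry them to the gut, and they are threaded with capillaries, pericytes and resident macrophages. CGP 57380 inhibits the MNK kinases (genes Mknk1 and Mknk2), which act downstream of the MAP kinases ERK and p38. Their best known substrate is eIF4E, the protein of the eIF4F complex that binds the cap of an mRNA at the start of translation. A kinase inhibitor of this kind acts on proteins, and the data here are mRNA levels.

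The libraries held 17129042 reads on genes in ND, 17623816 in HFD_CGP and 16297644 in HFD_DMSO. Ins1 and Ins2 together took 15.32% of the ND reads (Wilson 95% interval 15.30 to 15.33), 19.09% in HFD_CGP (19.07 to 19.11) and 43.50% in HFD_DMSO (43.48 to 43.52), so the remaining genes share fewer reads in the HFD_DMSO library. A gene with 0 reads could stand at up to 3 reads, which is 0.175 CPM (reads per 1000000 reads) in ND and 0.170 in HFD_CGP. There is 1 library per group, so no difference has a replicate check, no test of the mice can be made, and every interval covers counting error only. Differences are given as log2((HFD_CGP + 1)/(ND + 1)) on the authors' normalised values, positive where HFD_CGP is higher. A gene is called here where it is at least 2-fold higher or lower. Whether it passed an adjusted p of 0.05 in the authors' deposited table is given as the authors' call, which compares the 2 libraries and not the treatments. In whole tissue, fewer cells of a type and less RNA per cell cannot be told apart.

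Of the 11399 genes, 1359 (11.9%) were at least 2-fold higher in HFD_CGP, 1203 (10.6%) were at least 2-fold lower, and 8837 lay between. The median log2 ratio was 0.03 and the quartiles were -0.54 and 0.61. At 4-fold or more, 107 genes were higher and 125 lower. When the libraries were instead scaled by their reads outside Ins1 and Ins2, the median moved to 0.13. The split became 1663 higher and 936 lower. A gene can reach the minimum through its higher library alone. With the authors' scaling, 360 of the 2280 genes with the lowest values kept (100 to 257) were 2-fold higher and 233 lower. The authors' deposited table called 1054 genes (4.57% of 23063) higher and 1006 (4.36%) lower, of which 724 and 697 were among the 11399. The same 2 totals came out of edgeR's exact test with a coefficient of variation of 0.2 between animals put in by assumption, and with 0.4 they were 27 and 54. The submitters' notes name DESeq2. The spread behind the deposited p-values is not given in the sources used here, and it may be an assumed one.

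**Figure D1:**
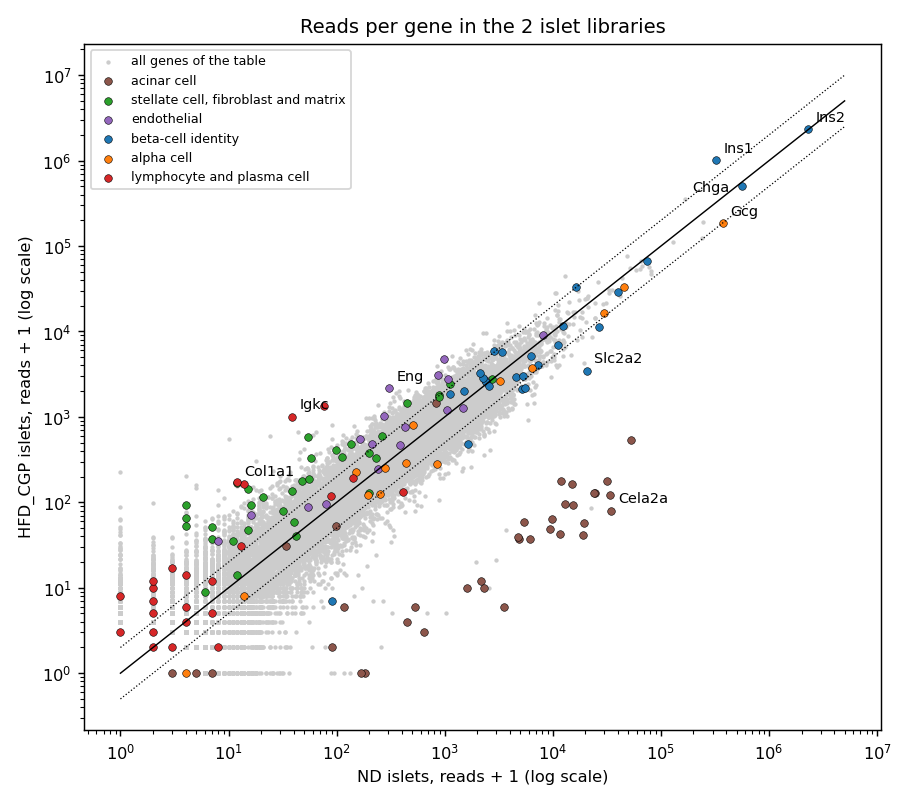
Reads per gene plus 1 in the ND library (x axis, log scale) against the HFD_CGP library (y axis, log scale) for all genes of the table (grey) and for the members of 6 gene lists (colours). The solid line marks equal reads and the dotted lines a 2-fold difference in reads; the acinar genes form a separate group far below the line, most matrix genes and the immunoglobulin genes lie above it, and endothelial genes lie above or close to it.

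The base composition of a transcript went with its ratio across the whole table. Among the 11387 genes with a transcript in the annotation, the Spearman correlation of the log2 ratio with the GC content of the longest transcript was 0.69, a description across genes that share the same 2 libraries. In the lowest of 10 equal GC bins (31.0% to 41.3%) the median log2 ratio was -0.81, with 12 genes 2-fold higher and 425 lower. In the highest bin (57.9% to 73.7%) it was 0.90, with 486 higher and 9 lower. The 1356 genes 2-fold higher had a median GC content of 56.4%, the 1198 lower of 42.7% and those between of 49.6%. Transcript length went with the ratio less: the median was 0.11 in the shortest of 5 length bins and -0.17 in the longest. What sets the GC trend was not tested, and with 1 library a side it cannot be told apart from the diet and the compound.

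**Figure D2:**
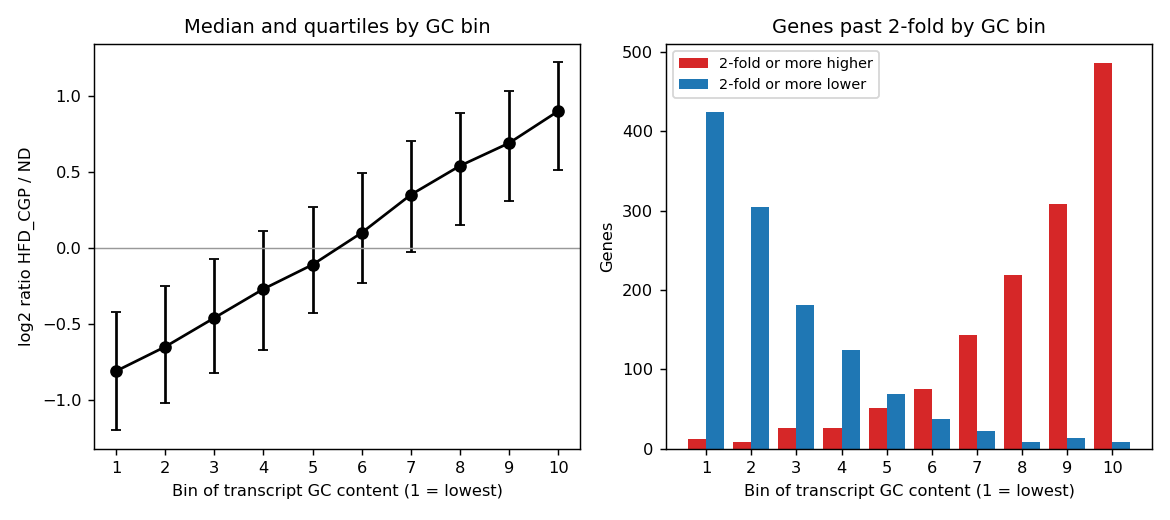
Left, median (point) and quartiles (bars) of the log2 ratio of HFD_CGP to ND in 10 equal bins of genes ordered by transcript GC content; right, the number of genes per bin at least 2-fold higher (red) or lower (blue) in HFD_CGP. The median climbs from -0.81 in bin 1 to 0.90 in bin 10, and the genes called lower and higher sit at opposite ends.

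For this reason most counts of list members and many single ratios are also given after subtraction of the median ratio of genes with like GC content, called the GC-centred value below. After centring, 572 genes (5.02%) were at least 2-fold higher and 525 (4.61%) lower. List counts below are read against these shares, and against 11.9% higher and 10.6% lower before centring. Of these, 375 and 372 were called in the same direction before centring. All 107 genes that were 4-fold higher, and all 121 of those 4-fold lower that had a GC value, were still past 2-fold after it. That outcome was fixed in advance, since centring moved the named genes by -0.95 to 0.85 only.

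Acinar digestive enzymes made the largest difference of the comparison, and they were almost gone from the HFD_CGP library. Of the 31 acinar genes at 100 or more, 29 were at least 2-fold lower in HFD_CGP and none higher, against 10.6% lower among all genes. Their median log2 ratio was -7.43, or -7.40 with the genes at 0 reads in HFD_CGP set at their bound, and -7.67 after GC centring. Summed over the list, the reads went from 359470 in ND through 91093 in HFD_DMSO to 3714 in HFD_CGP.

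Cela2a, a pancreatic elastase (ENSMUSG00000058579, chromosome 4, 141814962 to 141826160 on GRCm38), had 34472 reads in ND, 427 in HFD_DMSO and 79 in HFD_CGP. Both high-fat libraries were far below ND, and HFD_CGP was the lowest. Its log2 ratio was -8.82 (counting interval -9.17 to -8.52), a level 451-fold lower, with an adjusted p of 3.5e-47 in the authors' deposited table. Cel, the bile-salt-dependent lipase, had 18886 reads in ND, 3815 in HFD_DMSO and 41 in HFD_CGP, and its log2 ratio of -8.88 (-9.39 to -8.47) was the lowest of the protein-coding genes. Pnlip, the main pancreatic lipase, fell from 33843 reads to 120, with 718 in HFD_DMSO, by 8.19 on the log2 scale. Ctrb1, a chymotrypsinogen and the most read acinar gene of ND, had 52898, 21731 and 533 reads in ND, HFD_DMSO and HFD_CGP, and a log2 ratio of -6.70. The order of the 3 libraries was thus ND, HFD_DMSO, HFD_CGP from high to low for these enzymes.

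Other enzyme classes followed with like sizes. The carboxypeptidases Cpb1 and Cpa1 had log2 ratios of -8.47 and -7.65. Among the trypsins, Prss2 stood at -7.59 and Try4 at -8.13. Prss3 had 180 reads in ND, 19 in HFD_DMSO and 0 in HFD_CGP, at least 62.8-fold lower against a floor of 3 reads. Try10 had 168 and 239 reads in ND and HFD_DMSO and 0 in HFD_CGP, at least 58.6-fold lower. How reads were split among the members of the trypsin and amylase families is uncertain, since their copies are alike in sequence. The amylase copy Amy2b, annotated as an unprocessed pseudogene, went from 3559 reads to 5, with 21 in HFD_DMSO.

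Not all acinar genes were far lower in HFD_DMSO than in ND. Pnliprp1, a lipase-related protein, had 15357 reads in ND, 16383 in HFD_DMSO and 92 in HFD_CGP. Try5 had 9875, 8092 and 63 reads, and Klk1, a kallikrein protease, 2989, 2406 and 20. For these 3 genes HFD_DMSO was near ND and HFD_CGP alone was low. Spink1, the trypsin inhibitor that acinar cells secrete with their enzymes, had 447, 689 and 3 reads, a log2 ratio of -6.87 (-9.57 to -5.73).

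The acinar transcription factors were few in reads and did not all follow the enzymes. Ptf1a, which drives acinar enzyme genes as a complex with Rbpjl, had 6 reads in ND, 56 in HFD_DMSO and 0 in HFD_CGP. Rbpjl had 90, 1077 and 1 reads, the highest in HFD_DMSO. Bhlha15, also called Mist1, is a factor of secretory cells and had 829, 846 and 1472 reads. It was 1 of the 2 list members not 2-fold lower, with a log2 ratio of 0.76 and a GC-centred value of 0.11. The other was Amy1, the salivary and liver type amylase, at -0.97 with 98 reads in ND and 52 in HFD_CGP. Cela3a and Prss1 had at most 4 reads in either library.

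The stretches before 3 acinar genes are shown because the enzymes moved together, and because the factor complex named above is known to bind an E-box beside a core shared with the Notch factor Rbpj. Sequences run from 250 bases before to 50 after the annotated start, 5′ to 3′ on the gene's strand, from RefSeq on GRCm38.p6. Capitals mark the E-box CANNTG and the core TGGGAA, searched on both strands; no E-box letters overlapped the core in these 3. The Cela2a window lies at chr4:141825956-141826255 (minus strand), the Cpa1 window at chr6:30638968-30639267 (plus strand) and the Cel window at chr2:28563354-28563653 (minus strand).
Cela2a: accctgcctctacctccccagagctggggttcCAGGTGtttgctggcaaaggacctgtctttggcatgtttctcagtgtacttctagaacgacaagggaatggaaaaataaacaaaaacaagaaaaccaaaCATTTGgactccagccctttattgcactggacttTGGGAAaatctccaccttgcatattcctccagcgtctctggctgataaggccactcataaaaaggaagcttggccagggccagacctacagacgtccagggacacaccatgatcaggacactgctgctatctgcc
Cpa1: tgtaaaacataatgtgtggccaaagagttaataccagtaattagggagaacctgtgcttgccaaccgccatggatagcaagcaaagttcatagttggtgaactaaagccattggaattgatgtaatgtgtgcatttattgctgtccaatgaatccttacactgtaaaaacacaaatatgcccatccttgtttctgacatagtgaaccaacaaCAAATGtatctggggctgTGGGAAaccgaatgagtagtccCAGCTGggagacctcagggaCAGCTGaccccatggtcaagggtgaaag
Cel: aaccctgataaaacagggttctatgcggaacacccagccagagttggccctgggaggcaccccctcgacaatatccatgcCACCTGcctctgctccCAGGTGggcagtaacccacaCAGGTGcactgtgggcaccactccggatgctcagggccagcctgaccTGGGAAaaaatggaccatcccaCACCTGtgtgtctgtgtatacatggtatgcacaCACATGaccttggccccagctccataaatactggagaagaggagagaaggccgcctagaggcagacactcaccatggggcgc
The windows hold 2, 3 and 5 E-box matches in this order, and 1 core match each. Of the 28 acinar genes with a window in the table, 23 (82.1%) held an E-box, 17 (60.7%) the core and 13 (46.4%) both. Among all 27025 windows the shares were 72.1%, 25.5% and 18.9%. Among the 8769 windows of genes at 100 or more they were 62.3%, 22.7% and 14.7%. A match of letters is a description of the window and not a bound site.

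Other exocrine and epithelial genes were mixed. All 3 Reg genes at 100 or more, which encode small lectin-like proteins made by acinar cells and by islets under stress, were lower: Reg1 went from 4883 reads (5282 in HFD_DMSO) to 36, at -7.11, Reg2 stood at -5.34 and Reg3b at -5.03. The other 3 members in the table, Reg3d, Reg3g and Reg3a, summed to 128 reads in ND and 1 in HFD_CGP. Among 12 duct and mucous genes 3 were 2-fold lower and 1 higher, against 10.6% and 11.9% among all genes, with a median of -0.04. After GC centring 3 were lower and 2 higher. Tff2, a mucous trefoil peptide, had 686, 343 and 4 reads in ND, HFD_DMSO and HFD_CGP and a log2 ratio of -7.16. Dmbt1, a mucosal glycoprotein, had 3648, 3156 and 46 reads and stood at -6.34. The third lower member was Prom1, a membrane glycoprotein, at -1.03 (-0.61 after centring), and the higher one was the water channel Aqp1, with 32, 202 and 137 reads, at 2.0 (1.37 after centring). The epithelial genes Krt7 (0.27), Krt18 (0.07) and Epcam (-0.36) lay within 2-fold, and Krt19 had 40 reads in ND, 307 in HFD_DMSO and 24 in HFD_CGP.

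The insulin genes differed from each other. Ins2 had the most reads of any gene in both libraries. Ins1 (ENSMUSG00000035804, chromosome 19, 52264323 to 52265456) had 322539 reads in ND, 2246463 in HFD_DMSO and 1009881 in HFD_CGP. HFD_CGP lay between the others, 2.99-fold above ND, with a log2 ratio of 1.58 (1.58 to 1.59), a GC-centred value of 1.73 and a deposited adjusted p of 0.00546 in the authors' deposited table. Ins2 had 2300828 reads in ND, 4842984 in HFD_DMSO and 2354606 in HFD_CGP. HFD_DMSO was the high library, and HFD_CGP stood by ND with a log2 ratio of -0.03. Per kilobase, Ins2 exceeded Ins1 in ND by 102380 against 18533 RPKM, and in HFD_CGP by 101832 against 56400. RPKM is reads per kilobase of the gene length in the authors' deposited table, scaled to library size. Only 7 of the 1013 stretches of 50 bases in the Ins1 transcript occur in that of Ins2, and how shared reads were assigned is not stated.

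Of 25 beta-cell identity genes at 100 or more, Ins1 was 2-fold higher, 5 were lower and 19 lay between. Among all genes 11.9% were higher and 10.6% lower. The list median was -0.20 against 0.03 for all genes, and after GC centring 1 was higher and 4 lower. The 5 lower were receptors, channels and transporters. Slc2a2, the glucose transporter GLUT2 of the mouse beta cell (ENSMUSG00000027690, chromosome 3, 28697903 to 28731359), had 20546 reads in ND, 1931 in HFD_DMSO and 3476 in HFD_CGP. ND was high and both high-fat libraries were low. Its log2 ratio was -2.63 (-2.68 to -2.58), 6.18-fold lower, and -1.91 after GC centring, with a deposited adjusted p of 4.0e-07 in the authors' deposited table. Glp1r, the receptor of the gut hormone GLP-1, had 1629, 79 and 477 reads in ND, HFD_DMSO and HFD_CGP. It stood at -1.84 (-1.99 to -1.69) and at -1.90 after centring.

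The 3 other lower members were closer to the 2-fold line. The prolactin receptor Prlr stood at -1.40 (-0.56 after GC centring), the calcium-activated cation channel Trpm5 at -1.37 (-2.0) and the granule zinc transporter Slc30a8 at -1.33 (-0.91). Only Trpm5 of these stayed past 2-fold after centring, and the authors' deposited table called all 3 lower. Slc30a8 had 26876 reads in ND, 4908 in HFD_DMSO and 11190 in HFD_CGP. Npy, a peptide of immature beta cells, was below the minimum with 89, 35 and 6 reads.

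Beta-cell transcription factors stayed within 2-fold. Pdx1 stood at 0.00 with 2425 reads in ND and 2535 in HFD_CGP, Nkx6-1 at 0.73, Pax6 at -0.33 and Neurod1 at 0.29. Mafa, which switches on insulin and glucose-sensing genes in mature beta cells, had 11089, 4896 and 7032 reads in ND, HFD_DMSO and HFD_CGP. Its log2 ratio of -0.72 was within 2-fold, and its GC-centred value of -1.67 was not. The maturity peptide Ucn3 stood at -0.15 and amylin (Iapp), which is secreted with insulin, at -0.20 with 556205 reads in ND and 507702 in HFD_CGP. The potassium channel subunit Abcc8 (0.97) was just below 2-fold higher and stood at 0.23 after centring.

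Receptors that tune secretion included several lower genes. Of 13 islet G protein-coupled receptors at 100 or more, 6 were 2-fold lower and 2 higher, against 10.6% and 11.9% among all genes. After centring 7 were lower and none higher, and the authors' deposited table called 6 lower and 1 higher. Casr, the calcium-sensing receptor, had 1005 reads in ND, 82 in HFD_DMSO and 298 in HFD_CGP, at -1.82. The lipid receptor Gpr119 stood at -1.82 and the galanin receptor Galr1 at -1.67, both with the HFD_DMSO library lowest. Cckar, a receptor for cholecystokinin that acinar cells also carry, had 143, 280 and 7 reads and stood at -4.23. The receptors Gcgr (glucagon) and Adra2a (adrenaline) were higher at 1.25 and 1.13 and lay within 2-fold after centring, at 0.52 and 0.27. Gipr, the receptor for the other incretin, stood at 0.43 with 3193 and 4494 reads.

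Ion channels and the secretory machinery mostly lay within 2-fold. Of 16 ion channel genes 3 were lower and 1 higher, the lower being the sodium channels Scn9a (-2.29) and Scn3a (-1.41, and -0.69 after centring) and Trpm5; after centring 2 were lower and none higher. Scn9a had 1006, 164 and 214 reads in ND, HFD_DMSO and HFD_CGP, so both high-fat libraries were low. The KATP pore Kcnj11 stood at 0.54 and the calcium channels Cacna1c and Cacna1d at 0.33 and 0.11. Of 14 exocytosis genes, Cadps, which primes dense-core granules, was lower (-1.37) and Unc13a higher (1.08, with a GC-centred value of 0.46).

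Prohormone processing genes went both ways, with 3 of 14 2-fold higher and 2 lower, and 1 higher and 2 lower after centring. Pcsk1, the convertase that cuts proinsulin, had 19566 reads in ND, 2114 in HFD_DMSO and 4220 in HFD_CGP. ND was again the high library, and the log2 ratio was -2.28 (-2.33 to -2.23), or -1.51 after GC centring. Pcsk2 (-0.21) and the carboxypeptidase Cpe (-0.03), which act on the same prohormones, lay within 2-fold. Pcsk1n, the proSAAS peptide that can inhibit PC1, had 12831, 28009 and 44762 reads and stood at 1.74 (1.71 to 1.77), with a centred value of 1.00. The granin Chga had 165823, 190027 and 354017 reads, 1.03 (1.02 to 1.04) and 0.17 after centring. Ptprn, the granule protein IA-2, stood at 1.21 (0.35 after centring), while its paralog Ptprn2 had 6778, 564 and 5323 reads, so it was low in HFD_DMSO only, and stood at -0.41.

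Glucagon had the lowest ratio of the islet hormones before GC centring, and pancreatic polypeptide after it. Gcg had 373494 reads in ND, 46533 in HFD_DMSO and 183652 in HFD_CGP. HFD_CGP lay between, 2.13-fold below ND, at -1.09 (-1.10 to -1.08), with a deposited adjusted p of 0.0741 in the authors' deposited table and a GC-centred value of -0.55. Of 12 alpha-cell genes, 3 were 2-fold lower, Gcg and Dpp10 among them, none higher, and the median was -0.71, or -0.64 after centring with 4 lower. Ttr stood at -0.53. Somatostatin (Sst) stood at -0.32, pancreatic polypeptide (Ppy) at -0.83 and peptide YY (Pyy) at -0.17. Of 8 delta, PP and epsilon genes, only Ghsr, the ghrelin receptor of delta cells, was 2-fold lower, with 98, 4 and 32 reads. That list's median of -0.35 became -1.0 after centring, with Sst, Ppy and Pyy, whose GC contents are 56.0%, 57.0% and 57.3%, at -0.97, -1.56 and -0.90.

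**Figure D3:**
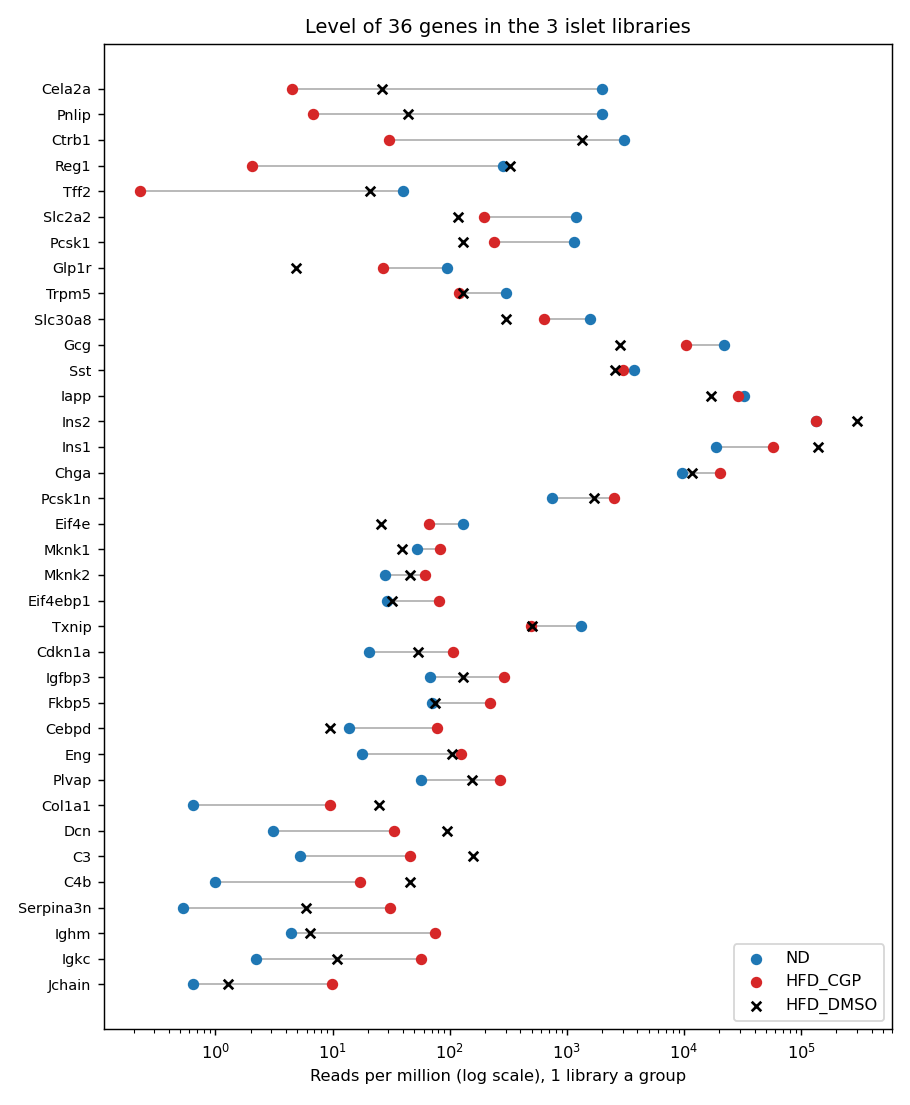
Level in CPM (log scale) of 36 genes in the ND (blue), HFD_CGP (red) and HFD_DMSO (cross) libraries, 1 library a group, with a grey line from ND to HFD_CGP. Acinar genes at the top span the widest gap, with HFD_CGP lowest; Slc2a2, Pcsk1 and Glp1r are high in ND only, and matrix, complement and immunoglobulin genes at the bottom are lowest in ND.

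Dedifferentiation markers showed no common direction. Of 9 at 100 or more, Myc and Vim were higher and none was lower; after centring Neurog3 (-1.07) was lower. Myc, a growth regulator kept low in mature beta cells, had 60, 274 and 318 reads in ND, HFD_DMSO and HFD_CGP and stood at 2.32. Vim, an intermediate filament of mesenchymal cells, stood at 1.46. Aldh1a3, a marker of failing beta cells, was lower in both high-fat libraries, with 155, 36 and 91 reads and a log2 ratio of -0.83. Neurog3, the endocrine progenitor factor, had 105, 8 and 87 reads. Genes disallowed in beta cells, which other tissues express and beta cells repress, were higher in 7 of 13 cases, against 11.9% among all genes, and lower in none, with a median of 1.11, or 0.78 and 5 genes after centring. Dcn (3.38), Igfbp4 (2.77), Nfib (2.03), Yap1 (1.74), Zfp36l1 (1.65), Tgm2 (1.48) and Cxcl12 (1.11) made up that count. All 7 were below 100 in ND and reached the minimum only through HFD_CGP. All of them are also expressed by mesenchymal or endothelial cells, whose markers were higher in the same library as given below, and their part in these values was not tested. Ldha (0.19) and Hk1 (0.94), the metabolic members, were within 2-fold, and the lactate transporter Slc16a1 had 6, 53 and 17 reads.

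The targets of CGP 57380 and the cap-binding machinery were within 2-fold or near it at the mRNA level, apart from its repressors. Mknk1 had 906 reads in ND, 641 in HFD_DMSO and 1447 in HFD_CGP, and Mknk2 had 478, 745 and 1075. HFD_CGP was the highest library for both, with log2 ratios of 0.61 and 1.1 and centred values of 0.24 and 0.15. Eif4e had 2241, 426 and 1174 reads, the highest in ND, with a log2 ratio of -1.0 (-1.10 to -0.90) and -0.23 after centring. Among 24 genes of the list, 6 were 2-fold higher and 1, the helicase Eif4a2 (-1.17), was lower; the median was 0.22, and after centring 3 were higher and none lower.

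The eIF4E-binding repressors Eif4ebp1 and Eif4ebp2 had the largest log2 ratios of that list before centring, among members at 100 or more. After centring the 3 higher members were Eif4ebp1, Spry2 (1.36) and Spry4 (1.02). Spry2 and Spry4 were below 100 in ND. Eif4ebp1, which blocks the assembly of eIF4F when it is not phosphorylated, had 496, 523 and 1435 reads in ND, HFD_DMSO and HFD_CGP. HFD_CGP stood apart from both others, at 1.47 (1.32 to 1.62) and 1.61 after GC centring, and the authors' deposited table gave an adjusted p of 0.0123. Eif4ebp2 had 770, 770 and 1939 reads, at 1.27 (1.15 to 1.39) and 0.93 after centring. The scaffold Eif4g1 stood at 0.09, and the MNK targets Hnrnpa1 and Sfpq at -0.86 and 0.29. Mcl1 (0.15) and Ccnd1 (-0.09), whose translation is known to respond to eIF4E, lay within 2-fold.

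Feedback genes of the MAP kinase pathway, which the MNKs follow, were mixed. Of 15 at 100 or more, the Sprouty genes Spry1 (2.27), Spry4 (1.13) and Spry2 (1.01) were 2-fold higher and none was lower. Spry1 had 35, 150 and 180 reads in ND, HFD_DMSO and HFD_CGP. All 3 Sprouty genes were below 100 in ND and reached the minimum only through HFD_CGP. They stayed past 2-fold after GC centring, when the list's median moved from 0.41 to -0.03. The ERK phosphatases Dusp6 (0.13), Dusp5 (-0.11) and Dusp4 (-0.71) were within 2-fold. Ribosomal protein genes were close to even: 62 of 63 lay within 2-fold, with a median of -0.01 and a range of -0.47 to 1.69. The exception was Rplp2, a stalk protein of the large subunit, with 1624, 6086 and 5501 reads.

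Insulin signalling and mTOR genes lay mostly within 2-fold. Of 27, 6 were 2-fold higher and 1, Rictor (-1.20), lower, against 11.9% and 10.6% among all genes. After GC centring 2 were higher and 1, Ddit4 (-1.07), lower, and Rictor stood at -0.49. Insr stood at 0.91 (1.25 after centring), Irs2 at -0.34, Akt1 at 0.73 and Mtor at 0.17. Rps6kb2, a kinase of ribosomal protein S6, was an outlier of the list: it had 23 reads in ND, 56 in HFD_DMSO and 598 in HFD_CGP, at 4.58 (4.04 to 5.30). Its relative Rps6kb1 stood at -0.15 with 866, 411 and 814 reads. A nearby gene was also high in HFD_CGP alone: Ppp1ca, a catalytic subunit of protein phosphatase 1, had 45, 56 and 387 reads, at 3.01. Rps6kb2 lies at 4156713 to 4163354 and Ppp1ca at 4192158 to 4195419 on chromosome 19. Between them lies Carns1 with at most 2 reads, and Coro1b before them stood at -0.97. Rad9a overlaps the end of Ppp1ca on the other strand, and how strand was counted is not given in the sources used here. Further out, Tmem134 stood at 1.93 and Ssh3 at 1.36, so the pair stood above its neighbours.

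Stress genes of the endoplasmic reticulum lay mostly within 2-fold. Of 32 genes of the unfolded protein response, 6 were 2-fold higher, none lower, and the median was 0.14, or -0.06 after GC centring with 2 still higher. Chac1, a glutathione-degrading enzyme induced through ATF4, had 211, 391 and 965 reads in ND, HFD_DMSO and HFD_CGP and stood at 2.12, or 1.39 after centring. Trib3 (1.55) and Sesn2 (1.22), which ATF4 also induces, stood at 0.69 and 0.37 after centring, while Asns, another ATF4 target, stood at -0.34. The other 3 of the 6 were the co-chaperone Dnajb11 (1.1, centred 1.04), the ubiquitin ligase Syvn1 (1.13, centred 0.40) and Sdf2l1 (1.02, centred 0.29). The chaperones Hspa5 (-0.74), Hsp90b1 (-0.70) and Dnajc3 (-0.69) were lower in HFD_CGP by less than 2-fold, as was Pdia4 (-0.87), and Calr (0.45) and P4hb (0.56) higher by less than 2-fold. Amino acid transporters that ATF4 controls included Slc7a5 (1.25, 912 to 2277 reads) and Slc1a5 (2.03, 59 to 255 reads), among 4 of 13 transporters that were 2-fold higher; after centring only Slc1a5 stayed, at 1.29. Atf4 itself stood at 0.47.

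Heat shock, p53 and glucocorticoid-responsive genes held some of the larger increases. Hspb1, a small heat shock protein, had 376, 1603 and 1988 reads in ND, HFD_DMSO and HFD_CGP and stood at 2.33, whereas Hspa1a (0.53) and Hspa8 (0.46) were within 2-fold. Among immediate early genes Fos (0.28), Egr1 (0.05) and Fosb (-0.21) lay within 2-fold. Cdkn1a, the cell cycle inhibitor p21, had 351, 869 and 1886 reads and stood at 2.36 (2.20 to 2.53), with a centred value of 1.89. Igfbp3, a carrier of IGF-1, had 1164, 2115 and 5157 reads and stood at 2.08. For both, ND was lowest, HFD_DMSO lay between and HFD_CGP was highest. Of 15 p53 and cell cycle inhibitor genes 5 were 2-fold higher, against 11.9% among all genes, and 1, Trp53inp1 (-1.33), lower. Mdm2 (-0.21) and Ccng1 (-0.82), other p53 targets, were within 2-fold. After centring 2 of the 5, Cdkn1a and Igfbp3, stayed higher; Gadd45g (0.81), Gadd45b (0.71), Bbc3 (0.47) and Trp53inp1 (-0.49) were then within 2-fold, and Cdkn2c (-1.10) was lower.

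Cebpd, a transcription factor induced by glucocorticoids and by inflammation, had 238 reads in ND, 154 in HFD_DMSO and 1386 in HFD_CGP. Fkbp5, a co-chaperone of the glucocorticoid receptor and one of its targets, had 1199, 1213 and 3881. For both, HFD_CGP alone was high, with log2 ratios of 2.47 (2.28 to 2.68) and 1.63 (1.54 to 1.72) and centred values of 2.14 and 1.30. Of 11 genes of the list, 3 were 2-fold higher and 1, Klf9 (-1.1), lower; after centring 3 were higher and 1, Ddit4, lower, with Klf9 at -0.90, while Tsc22d3 stood at 0.56 and Sgk1 at -0.06. Angptl4, an inhibitor of lipoprotein lipase that also answers to fatty acids, had 7, 176 and 140 reads, high in both high-fat libraries. Of 18 clock genes, Npas2 (2.23), Cry2 (1.54) and Nfil3 (1.33) were higher and Nr1d2 (-1.47), Clock (-1.39) and Dbp (-1.27) lower; after centring Npas2 (1.90) and Dbp (-2.22) stayed past 2-fold. The hour at which islets were taken is not given in the sources used here.

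Cell cycle genes with enough reads were lower or within 2-fold. Of 14 at 100 or more, 5 were 2-fold lower, against 10.6% among all genes, and none higher, with a median of -0.19. Top2a, a topoisomerase of dividing cells, had 189, 51 and 44 reads in ND, HFD_DMSO and HFD_CGP, and Mki67, the proliferation marker Ki-67, had 145, 90 and 38. Both were highest in ND, with log2 ratios of -2.14 and -1.97, and both stayed past 2-fold after GC centring. Mcm4, Ccne2 and Pcna completed the count at -1.37, -1.35 and -1.09 and did not stay. Of the 5, all but Pcna were below 100 in HFD_CGP and reached the minimum only through ND. The cyclins Ccnd1 and Ccnd2, which are high in islets, stood at -0.09 and 0.00. The 21 members below 100 summed to 836 reads in ND and 632 in HFD_CGP. They went both ways, with Ccnb1 at 38 and 6 reads, Cenpf at 73 and 5, Aurka at 51 and 89 and Ccne1 at 40 and 94.

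Energy metabolism genes lay mostly within 2-fold. Of 52 nuclear genes of respiratory complexes I to V, 49 lay within 2-fold with a median of 0.00; Ndufs1 (-1.24) and Uqcrc2 (-1.03) were lower and Atp5d (1.26) higher, and of these none was past 2-fold after GC centring. All 11 mitochondrially encoded genes at 100 or more lay within 2-fold, with a median of 0.05. These transcripts are poor in GC, so their centred median was 0.90, and 4 of the 11 were then 2-fold higher. Of 21 glycolysis genes, Slc2a2 and Pdk1 (-1.12) were lower and Gpi1 (1.09) and Eno2 (1.01) higher. After centring none was higher, Pdk1 (-0.77), Gpi1 (0.76) and Eno2 (0.38) were within 2-fold, and Slc2a2 and Gapdh (-1.17) were lower. Txnip, an arrestin-like protein induced by glucose, had 22811, 8239 and 8652 reads in ND, HFD_DMSO and HFD_CGP. It was high in ND only and stood at -1.46 (-1.50 to -1.43), with a centred value of -1.32.

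Lipid genes mostly lay within 2-fold. In the list of fatty acid and lipid handling, 4 of 24 were 2-fold higher, near the 11.9% among all genes, and none lower: Angptl4, the triglyceride lipase Pnpla2 (1.72, centred 0.99), the fatty acid binding protein Fabp4 (1.58, centred 2.17) and Fasn (1.04, centred 0.30). After centring Angptl4, Fabp4 and Cd36 (1.07) were higher and Acly (-1.17) lower. Fabp4 had 219, 639 and 685 reads and is made by capillary endothelium and fat cells. Of 24 genes of cholesterol synthesis 5 were lower and 2 higher, against 10.6% and 11.9% among all genes. Idi1 (-2.20), Hsd17b7 (-1.85), Nsdhl (-1.18) and Stard4 (-1.17) were among the lower ones, with Mvd (1.63) and Tm7sf2 (1.20) the higher. Only Idi1 and Hsd17b7 stayed 2-fold lower after centring. Both reached the minimum only through ND, and Mvd reached it only through HFD_CGP. In zinc transport, 3 of 13 genes were lower: Slc39a5 (-1.70), Slc30a8 and Slc39a10 (-1.27); after centring only Slc39a5 (-2.65) was, with Slc30a8 at -0.91 and Slc39a10 at -0.73. Of 22 lysosomal genes 4 were higher, Hexa (1.88), Tfeb (1.89) and Atp6v0d1 among them, and Atp6v1a (-1.65) and Lamp2 (-1.11) were lower. After centring 2 were higher and 2 lower, with Tfeb at 0.94, Atp6v0d1 at 0.73 and Lamp2 at -0.26.

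**Figure D4:**
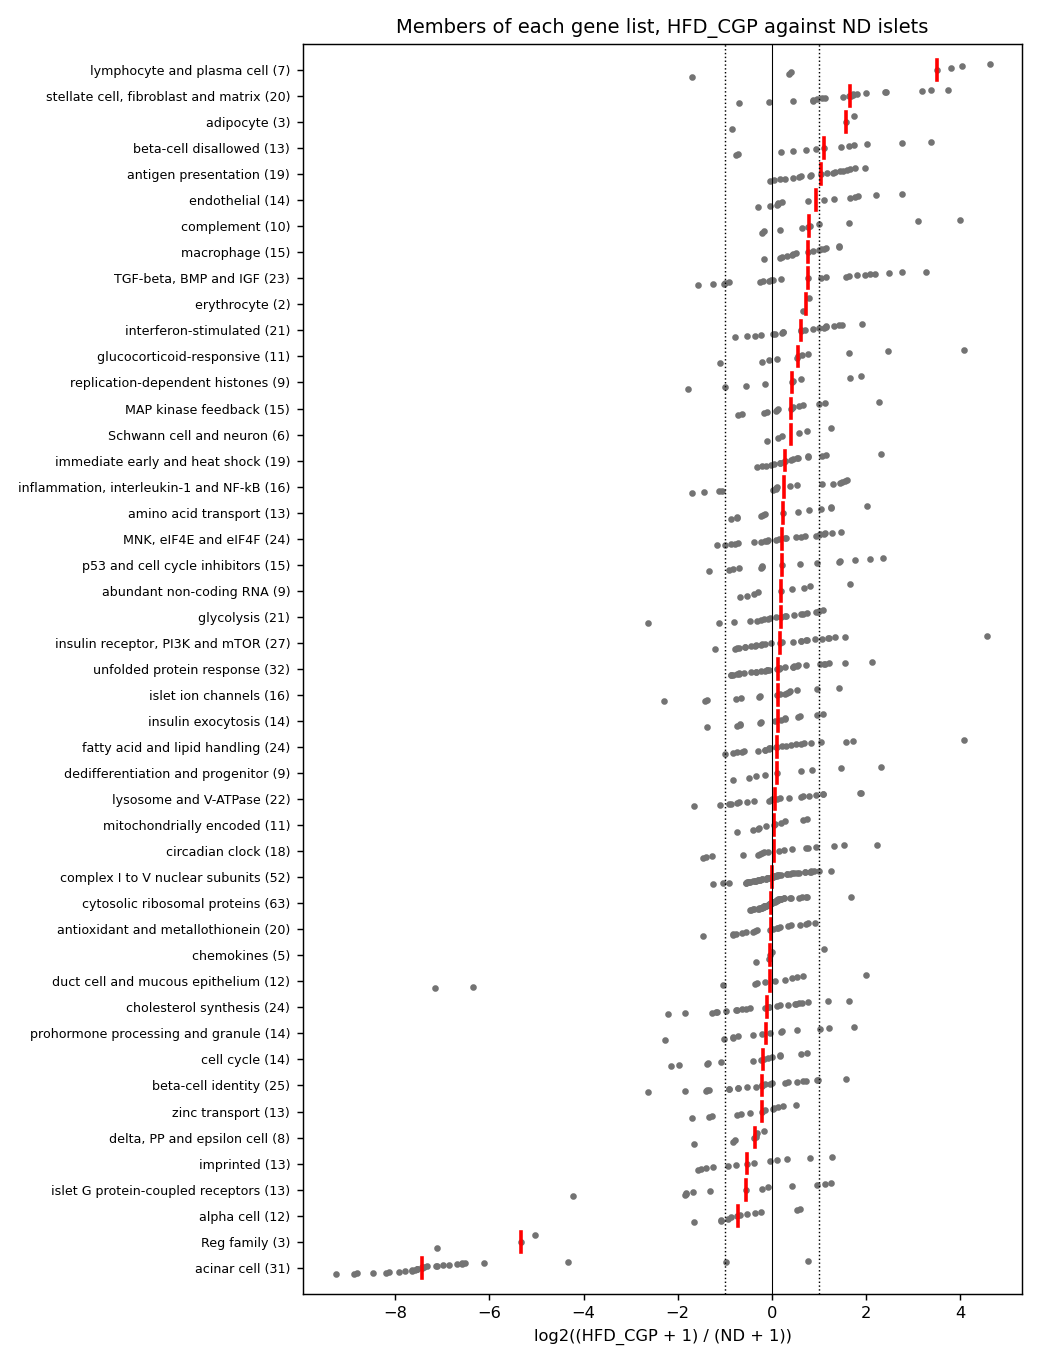
Log2 ratio of HFD_CGP to ND for each member at 100 or more (grey points) of 47 gene lists, ordered by their median (red bar); the number of such members is in brackets and dotted lines mark 2-fold. Acinar and Reg genes lie at the left. The lymphocyte, matrix, adipocyte (3 genes), disallowed and antigen presentation lists have medians beyond 2-fold on the right. Most other medians lie near 0.

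Matrix and mesenchymal genes were higher in HFD_CGP. Of 20 genes of stellate cells, fibroblasts and matrix at 100 or more, 14 were 2-fold higher and none lower. Among all genes 11.9% were higher. The list median was 1.66. Most of the 14 were below 100 in ND and reached the minimum only through HFD_CGP. These were Col1a1, Col1a2, Col6a1, Col6a2, Col18a1, Dcn, Bgn, Des and Cspg4. After GC centring 10 were higher and 1, Col6a3 (-1.32), was lower, with a median of 0.98. The authors' deposited table called 18 members of the list higher and none lower, low ones included. Over all 33 members the reads summed to 7798 in ND, 17321 in HFD_DMSO and 15310 in HFD_CGP.

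Col1a1, a chain of fibrillar collagen I, had 11 reads in ND, 406 in HFD_DMSO and 166 in HFD_CGP. ND was the low library, and the log2 ratio was 3.74 (2.97 to 4.88), 2.88 after centring. Dcn, a proteoglycan of fibroblasts, had 53, 1536 and 588 reads and stood at 3.38 (3.0 to 3.84). Col3a1 had 136, 1841 and 476 reads and Col1a2 97, 839 and 409. For these fibrillar collagens and Dcn the HFD_DMSO library was above HFD_CGP. Basement membrane collagen IV followed another order, with 451, 800 and 1468 reads of Col4a2 and 1109, 1148 and 2428 of Col4a1, where HFD_CGP was highest. Pericyte genes were not uniform: Pdgfrb (1.52) and Cspg4 (1.68) were higher, while Rgs5, with 2755 and 2778 reads, stood at -0.05 and Acta2 at 0.44. Pdgfra, the receptor of fibroblasts, had 3 reads in ND, 193 in HFD_DMSO and 52 in HFD_CGP.

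Of 23 growth factor genes of the TGF-beta, BMP and IGF systems, 11 were 2-fold higher and 3 lower, against 11.9% and 10.6% among all genes. After centring 7 were higher and none lower, against 5.02% and 4.61%. Most of the 11 were below 100 in ND and reached the minimum only through HFD_CGP: Tgfb1, Tgfbr2, Tgfbi, Bmp6, Inhbb, Smad6 and Igfbp4. Acvr1c, among the lower ones, reached it only through ND. Inhbb, which encodes the activin B subunit, had 60, 230 and 618 reads in ND, HFD_DMSO and HFD_CGP and stood at 3.28 (2.92 to 3.71). The ligand Tgfb1 (2.49), its receptor Tgfbr2 (1.81) and its induced protein Tgfbi (2.19) were higher. The BMP target genes Id3 (1.63), Smad6 (1.97) and Smad7 (1.16) were higher as well (0.98, 1.02 and 0.43 after centring), and the receptors Bmpr1a (-1.57), Acvr1c (-1.25) and Tgfbr1 (-1.02) lower. Of the lower receptors none was past 2-fold after centring.

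Endothelial genes were split between higher and even members. Of 14 at 100 or more, 7 were 2-fold higher, against 11.9% among all genes, and none lower. The median was 0.93, or 0.79 and 6 genes after GC centring. Eng, a co-receptor for TGF-beta and BMP9 on endothelium, had 307, 1699 and 2192 reads in ND, HFD_DMSO and HFD_CGP and stood at 2.77 (2.60 to 2.95). Plvap, which forms the diaphragms of fenestrated capillaries, had 978, 2528 and 4765 reads and stood at 2.22. The VEGF receptors Flt1 (1.77) and Kdr (1.32), Tie1 (1.84), Robo4 (1.67) and Cdh5 (1.1) were also higher. Pecam1 (0.13), Tek (-0.04), Emcn (-0.29) and Esm1 (0.13), markers of the same cells, lay within 2-fold, and so did Vegfa (0.11), the ligand that islet cells make. Summed over the list, reads went from 18043 in ND and 15372 in HFD_DMSO to 30962 in HFD_CGP.

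Fat, nerve and blood markers were few. Adiponectin (Adipoq) had 0, 1 and 2 reads in ND, HFD_DMSO and HFD_CGP and Cfd at most 4, so the defining adipocyte genes were near 0, while Fabp4 and Lipe (1.75), which other cells also express, were higher. Of 6 nerve and Schwann cell genes only Uchl1 (1.26) was 2-fold higher. The globins Hbb-bs and Hba-a1 stood at 0.67 and 0.78.

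Immunoglobulin genes were among those with the largest log2 ratios. Igkc, the constant part of the kappa light chain (ENSMUSG00000076609, chromosome 6, 70726435 to 70726966), had 38 reads in ND, 180 in HFD_DMSO and 1009 in HFD_CGP. Ighm, the constant part of the heavy chain of IgM, had 76, 105 and 1330 reads. HFD_CGP was the high library for both, at 4.63 (4.20 to 5.17) and 4.05 (3.73 to 4.42), and centring left them at 4.70 and 3.71. Ighg2b had 0, 3 and 226 reads, at least 72.0-fold higher in HFD_CGP. Jchain, which joins IgM and IgA into polymers in plasma cells, had 11, 21 and 173 reads and stood at 3.80. Igha stood at 3.5 with 13, 186 and 164 reads, high in both high-fat libraries.

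Genes that mark the B cell itself did not follow the immunoglobulins. Cd79a, part of the B-cell receptor, had 407, 72 and 131 reads in ND, HFD_DMSO and HFD_CGP and stood at -1.69, and Cd79b had 6, 11 and 4. The B-cell gene Ms4a1 had 0 reads in ND and 2 in HFD_CGP, and the plasma cell gene Mzb1 had 12 and 30. T-cell genes were near 0 in both, with Cd3e at 1 and 2 reads, Cd3d at 3 and 5, and Cd8a at 2 and 1. Over the 24 lymphocyte and plasma cell genes the reads summed to 822, 1537 and 3244. In the list, 7 members reached 100, of which 4 immunoglobulin-related genes were 2-fold higher and Cd79a lower. These 4 genes were below 100 in ND and reached the minimum only through HFD_CGP.

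Macrophage and antigen presentation genes were modestly higher. Of 15 macrophage genes 6 were 2-fold higher, against 11.9% among all genes, and none lower. The median was 0.76, or 0.51 after centring with 2 still higher and C1qa (-1.02) lower. Of the 6, Cd68, Itgax and Cx3cr1 were below 100 in ND and reached the minimum only through HFD_CGP. Apoe had 3167, 7828 and 8876 reads in ND, HFD_DMSO and HFD_CGP, at 1.42, and the lysozyme Lyz2 had 553, 1287 and 1293, at 1.16. The macrophage markers Adgre1 (0.42), Csf1r (0.87) and C1qa (-0.16, 1680 and 1569 reads) were within 2-fold. Of 19 antigen presentation genes 10 were 2-fold higher, against 11.9% among all genes, with a median of 1.04. After centring 3 were, against 5.02%, with a median of 0.61. Of the 10, Nlrc5, H2-DMa, H2-DMb1 and H2-Q6 were below 100 in ND and reached the minimum only through HFD_CGP. Nlrc5 and H2-DMa were among the 3 that stayed. Cd74, the invariant chain of MHC class II, had 1382, 3350 and 4945 reads and stood at 1.77 (1.69 to 1.86). Nlrc5, which switches on MHC class I genes, had 30, 120 and 127 reads and stood at 1.98. B2m (0.04), H2-Aa (-0.04) and H2-K1 (0.46) lay within 2-fold, and near-identical H2 genes can share reads.

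Interferon-stimulated genes were higher in 8 of 21 cases, against 11.9% among all genes, and lower in none, with a median of 0.63. After GC centring 7 were higher, against 5.02%, and the median was 0.61. Irf8 (1.92), Irf7 (1.49), Stat2 (1.43) and Rtp4 (1.32) led them. Of the 8, Irf8, Irf7, Rtp4 and Ifit3 were below 100 in ND and reached the minimum only through HFD_CGP. Irf7 had 81, 464 and 240 reads in ND, HFD_DMSO and HFD_CGP, the highest in HFD_DMSO. Usp18 (-0.78) and Irf1 (0.02) did not follow. Complement genes were uneven: of 10, C4b, C3, Cfp (1.65) and C1qb (1.01) were 2-fold higher; after centring 3 were higher and 1 lower, with C1qb at 0.28. C3, the central complement component, had 90, 2567 and 813 reads, and C4b had 17, 747 and 301. Both were lowest in ND and highest in HFD_DMSO, with log2 ratios of 3.10 and 4.00. Both were below 100 in ND, so of this pair only HFD_CGP brought them to the minimum.

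Inflammation genes moved in both directions. Of 16 at 100 or more, 6 were 2-fold higher and 4 lower, and after GC centring none was higher and 2 lower. The higher ones were the NF-kB subunits Nfkb2 (1.55), Relb (1.5) and Rela (1.30), with Cebpb (1.59), Socs3 (1.44) and Stat3 (1.06). The lower ones were Il1r1, Il18 (-1.05), Il1b (-1.44) and the decoy receptor Tnfrsf11b (-1.70). Il1r1, the interleukin-1 receptor, which is abundant in mouse islets, had 16735, 1275 and 8020 reads in ND, HFD_DMSO and HFD_CGP, and stood at -1.13 (-0.58 after centring). Of 5 chemokine genes only Cxcl12 was 2-fold higher, and Cxcl10 had 38, 135 and 26 reads.

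**Figure D5:**
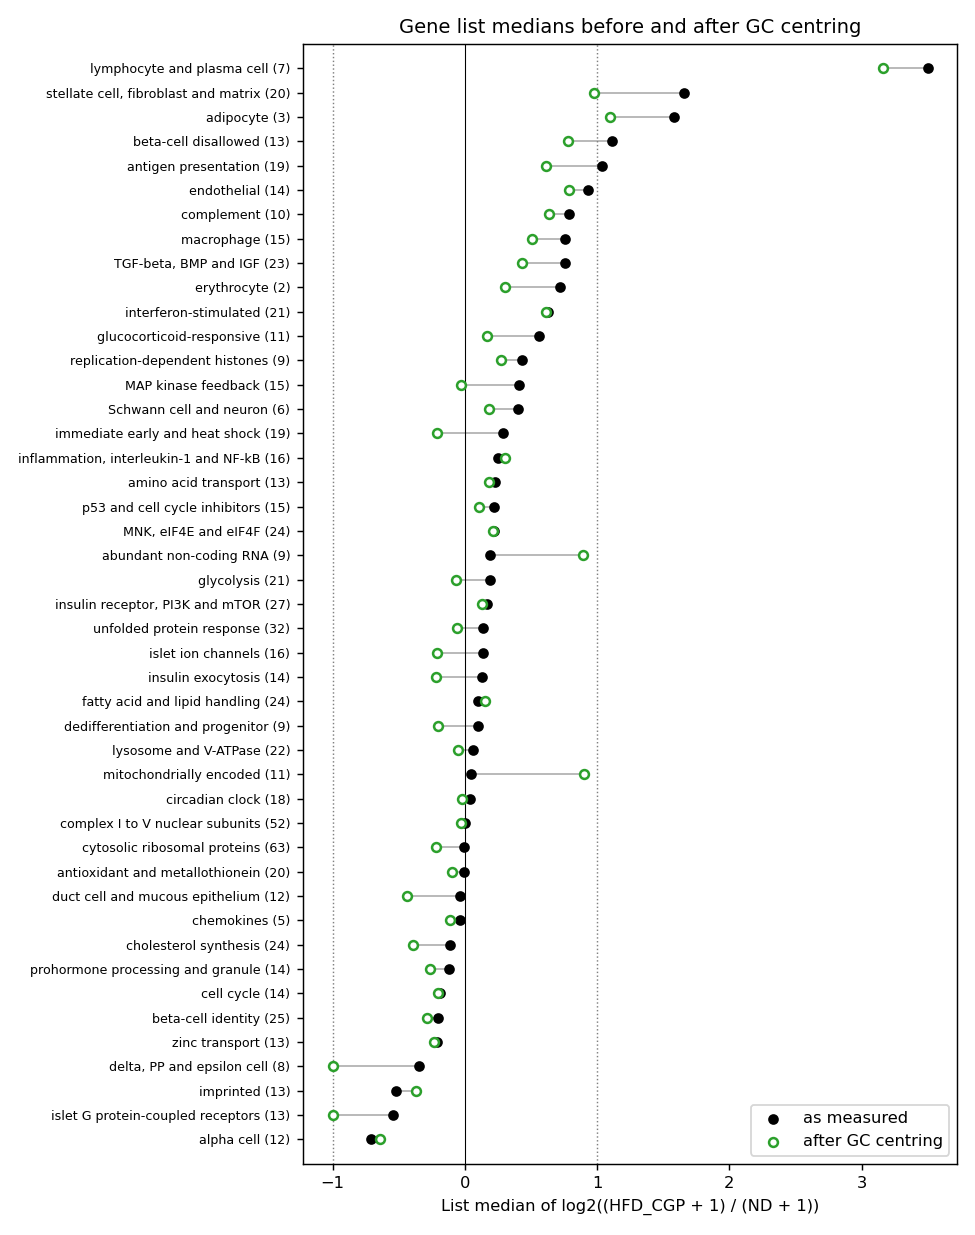
Median log2 ratio of HFD_CGP to ND of 45 gene lists as measured (black) and after GC centring (green), with the number of members in brackets; the acinar and Reg lists, both beyond -4, are left out. Matrix, disallowed and antigen presentation medians fall below 2-fold with centring, and mitochondrially encoded genes move up from 0.05 to 0.90. The lymphocyte and plasma cell list and the adipocyte list (3 genes) stay beyond 2-fold.

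Among the remaining protein-coding genes with the largest increases, several encode secreted or matrix proteins. Serpina3n, an acute-phase serine protease inhibitor (ENSMUSG00000021091, chromosome 12, 104406729 to 104414329), had 9 reads in ND, 96 in HFD_DMSO and 545 in HFD_CGP. HFD_CGP was the high library by far, at 5.71 (4.92 to 6.99), the largest log2 ratio of a protein-coding gene with 100 or more. Gpnmb, a glycoprotein of lipid-laden macrophages, had 3, 59 and 204 reads and stood at 5.62 (4.45 to 8.31). C7, a terminal complement protein, stood at 4.94 (4, 136 and 159 reads) and the BMP-like Gdf10 at 4.84 (4, 138 and 148 reads), both alike in the 2 high-fat libraries.

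Further genes of that group were Penk (3.62), the precursor of enkephalin peptides, Aebp1 (3.59) and Dpt (3.15), both matrix-associated proteins, and Xdh (3.09), xanthine dehydrogenase. Crybb3, a crystallin, had 63, 362 and 670 reads in ND, HFD_DMSO and HFD_CGP and stood at 3.33. Inhbb, Rps6kb2 and Ppp1ca, given above, belong to the same 30 genes. All 30 were called higher in the authors' deposited table. Their GC-centred values ran from 1.63 for Hic1 upward, and ratios this large could not fall within 2-fold by centring.

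Imprinted genes and abundant non-coding RNAs close the account. Of 13 imprinted genes, 4 were 2-fold lower and 1 higher: Mest (-1.57), Zim1 (-1.51), Nnat (-1.39) and Peg10 (-1.25) were lower, and the non-coding Mirg (1.27) higher. After centring Zim1 (-0.79) and Mirg (0.94) were within 2-fold and the other 3 stayed lower. Nnat, a small membrane protein of endocrine cells, had 1080, 305 and 430 reads in ND, HFD_DMSO and HFD_CGP and stood at -2.25 after centring. Peg3, far more abundant, had 29700, 5378 and 16301 reads and stood at -0.93. Neat1, the nuclear RNA that scaffolds paraspeckles, had 3747, 4404 and 12421 reads and stood at 1.66 (1.61 to 1.72), with HFD_CGP alone high, while Malat1, its neighbour in the genome, stood at -0.53. Histone genes of the replication-dependent clusters were split, with 2 of 9 higher and 2 lower, and 1 higher and 2 lower after centring.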

How the data were processed

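RNA-seq was made from total RNA of islets (Trizol, TruSeq kit, 1 ug), per the labels' protocols. No aligner, counter, genome build or strand setting is given in the sources used here. The submitters' processing notes name DESeq2 1.10.1. Each table that the authors deposited has a signal column per library, which is reads divided by a factor so that the pair shares 1 library size, with a log2 fold change and p-value columns. Tables were scaled pair by pair, and ratios were taken within 1 table.

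The values of 1 library are whole multiples of what 1 read is worth, and whole reads were recovered: 100% of the values of this table lay within 0.1 of a whole number, and genes shared between tables gave the same reads (0 differed). HFD_DMSO reads come from the other 2 tables. No per-sample column was left unused, and 1 emptied line was skipped.

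The log2 ratio used a pseudocount of 1 and a minimum of 100 in the higher column. Intervals are 95% counting intervals. GC content is that of the longest GENCODE M21 transcript, and 23026 IDs (99.8%) were found there. Centring subtracted the median of 20 GC bins. Of 1002 list symbols 970 matched, 2 by synonym. edgeR 4.0.16 was run with an assumed spread and tested on simulated data. Named genes were the 30 coding and 10 non-coding extremes in each direction, the 15 highest per library, up to 8 members per list by ratio and 3 by level, and 27 fixed genes. The lists and members were chosen with earlier results of these data known. A few genes these rules name are not reported here.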

Additional observations from a re-analysis of the deposited data

How the results depend on the processing

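Counts of genes 2-fold higher and lower moved with the minimum: 2405 and 2298 at 10, 778 and 761 at 500, and 3758 and 4543 with none, where the median log2 ratio was -0.04. They were 107 and 125 at 4-fold, and 572 and 525 after GC centring, which sets the median to 0.00. edgeR's exact test gave 27 and 54 with an assumed coefficient of variation of 0.4. The median was 0.06 with scaling by total reads, 0.13 by totals without Ins1 and Ins2 and 0.08 by the median ratio. A pseudocount of 10 or 0.5 and the limit to protein-coding genes kept the counts within 1.5 times. Of 47 list medians 7 were past 2-fold; GC centring took 3 below it and brought 2 past it. Of 252 named genes past 2-fold that have a GC value, 90 were not past it after centring, and 24 others were. Of those past 2-fold, 0 turned to the other side under any alternative. Centring shifts of -0.95 to 0.85 could not have turned any of them. No paired analysis was possible because each group has 1 library, and no replicate could be left out. Genes with few reads are limited by depth. The cause of these shifts was not tested.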
